A study of Mus musculus with 48 samples.

Results

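The interaction of genotype and maturation was measured in the cortex between postnatal week (PWK) 1 and PWK 7, as the change of each gene from PWK 1 to PWK 7 in Cyfip2+/- mice minus the same change in WT mice. All cortex libraries of these 2 ages entered, which are 16 of the 48 libraries of the series, with 4 replicate libraries in each of 4 groups. A positive interaction means that a gene rose more, or fell less, in Cyfip2+/- mice, and it equals the difference between genotypes at PWK 7 minus that at PWK 1. Values are normalized counts, which are read estimates per gene put on a common scale by the authors, and differences are on the scale of log2 of the normalized count plus 1, which understates the change of genes with low counts.

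The groups were WT and heterozygous (Cyfip2+/-) mice of the C57BL/6N strain, each at 1 week and at 7 weeks of age. Cyfip2+/- mice carry 1 inactivated Cyfip2 allele in every cell of the body, and the WT mice were littermates, so that no group received any other allele or agent. The 2 ages come from different mice, so a course is a difference between groups, replicates were taken as separate mice without a source that ties libraries to animals, and ages are recorded in weeks only. The tissue was sequenced in bulk, and fewer cells of a type cannot be told apart from less RNA per cell.

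CYFIP2 is a subunit of the WAVE regulatory complex, which holds the WAVE proteins inactive until the small GTPase Rac1 releases them to switch on the Arp2/3 complex, the machine that nucleates branched actin filaments. In neurons these filaments shape growth cones, dendritic spines and synapses. Over the weeks studied here, cortical neurons stop extending axons and refine their synapses, inhibitory interneurons acquire their adult proteins, oligodendrocytes wrap axons in myelin, and astrocytes and microglia take on their mature forms.

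Normalized counts summed to 31.6M to 33.7M per library, and because normalization makes these sums alike they do not show the depth. Within groups, the median SD of a gene was 0.119 to 0.128 on the log2 scale, and pairs of libraries correlated across genes by 0.985 to 0.989. Markers of cortical excitatory neurons were present throughout, with Slc17a7, the vesicular glutamate transporter, at 28054 to 34653 in the group where its mean was lowest, and with all 13 listed markers among the genes tested. Genes of the choroid plexus and ependyma were low, with their 7 tested markers summing to 303 to 394 in WT and 279 to 404 in Cyfip2+/- mice at PWK 1 and to 359 to 1069 and 389.5 to 637 at PWK 7, while Folr1, Otx2 and Kcne2 were under the minimum for testing. Markers of striatal neurons, which lie next to the cortex, set single libraries apart, since their mean log2 level was 9.73 in WT replicate 3 of PWK 1 against 8.77 to 9.05 in the other WT libraries, and ran from 8.44 to 9.56 over both genotypes at PWK 7.

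Cyfip2 (ENSMUSG00000020340) lies at chr11:46193850-46312859 on the minus strand of GRCm38. Cyfip2 had normalized counts of 18737, 19736, 17489 and 18276 in the 4 WT libraries and 12472, 12484, 13706 and 13779.6 in the 4 Cyfip2+/- libraries at PWK 1, and of 32668, 30231, 32459.5 and 32714 in the WT and 21678, 21489.5, 21567 and 21531 in the Cyfip2+/- libraries at PWK 7. The genotypes were separate at both ages, and Cyfip2+/- mice held 70.6% of the WT mean at PWK 1 and 67.4% at PWK 7. Cyfip2 rose with age in both genotypes, 1.73-fold in WT and 1.65-fold in Cyfip2+/- mice. Its interaction was -0.0676 (SE 0.0613, adjusted p = 0.766), with a 95% interval of -0.20 to 0.0615, so that the reduction of the targeted gene did not differ between ages beyond the spread between mice. Cyfip1, the paralog that takes the same place in the WAVE complex, had normalized counts of 2385 to 2716 in WT and 2293 to 2532 in Cyfip2+/- mice at PWK 1, and of 2254 to 2519 in WT and 2499 to 2631 in Cyfip2+/- mice at PWK 7. Its interaction of 0.17 (SE 0.0675, adjusted p = 0.406) did not pass the adjusted threshold, and the genotypes overlapped at both ages.

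No gene passed the test of the interaction. Of 17491 genes tested by limma, 0 (0%) had an adjusted p below 0.05, and the smallest adjusted p was 0.277. Single genes passed only in other fits, Igfn1 when the 8 cortex libraries of PWK 14 were added (limma, adjusted p = 0.0364) or when Cyfip2+/- replicate 1 of PWK 1 was left out (adjusted p = 0.023). At an unadjusted p below 0.05, 1740 genes were found where equally spread p-values would give 875, and of these 799 (4.57% of all tested) were positive and 941 (5.38%) were negative. Age itself changed 12627 genes on the average of both genotypes, with 6319 (36.1%) higher and 6308 (36.1%) lower at PWK 7. The age change passed the test for 10294 genes (58.9%) in WT mice and 11245 (64.3%) in Cyfip2+/- mice, of which 9247 were shared with the same direction and 1 with opposite directions. The changes of the 2 genotypes correlated by 0.915 over genes, which share their libraries, and the plot of age changes shows them along the line of equal change.

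**Figure D1:**
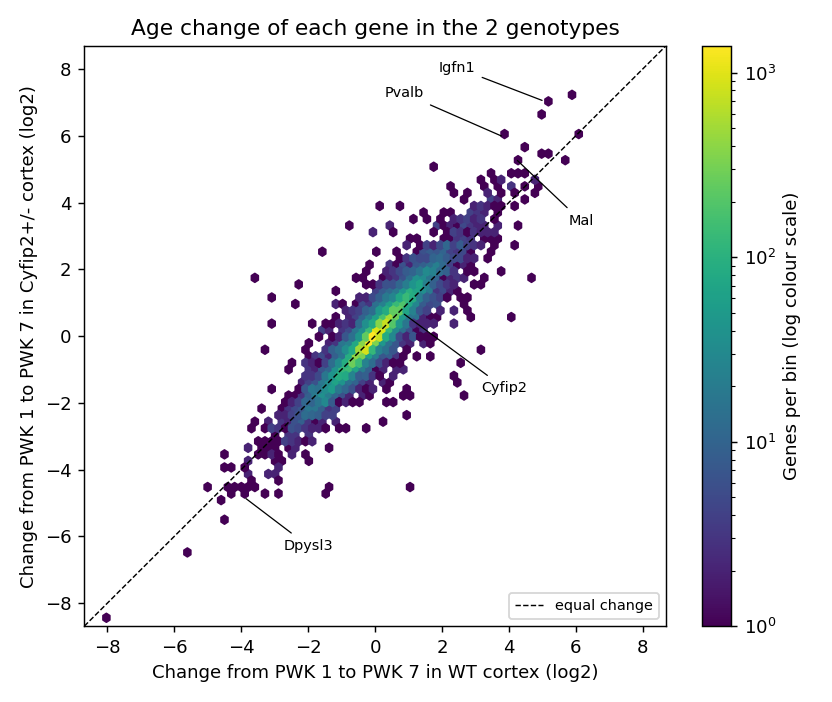
Change from PWK 1 to PWK 7 on the log2 scale in WT mice (horizontal) and in Cyfip2+/- mice (vertical) for the 17491 genes tested, with colour giving the number of genes per bin and the dashed line marking equal change. Most genes lie along the line, and Pvalb and Igfn1 lie above it, with interactions of 2.08 and 1.93.

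The difference between genotypes lay mainly at the younger age. At PWK 1, 253 genes differed between Cyfip2+/- and WT mice at an adjusted p below 0.05, with 105 (0.6%) higher and 148 (0.846%) lower in Cyfip2+/- mice, whereas at PWK 7 only Cyfip2 did (0.00572%). The values of the genotypes did not overlap at PWK 1 for 1363 genes (7.79%) and at PWK 7 for 532 genes (3.04%). Among the 1740 genes with an unadjusted interaction p below 0.05, the difference at PWK 1 was the larger one in 79.4% (61.1% of all genes tested), and the differences at both ages had opposite signs in 82.2% (46.7% of all genes tested), where both differences are parts of the interaction that chose these genes. The number of genes called at PWK 1 rested on single libraries, since it was 6 or 5 without WT replicate 1 or 2, and 3 or 7 without Cyfip2+/- replicate 1 or 2, of that age. It was 502 or 522 without WT replicate 3 or 4 and 730 without Cyfip2+/- replicate 3, and leaving out a library of PWK 7 gave 44 to 177, while at least 252 of the 253 genes kept their direction in each case. Cyfip2 and Igfn1 were called at PWK 1 in all 16 such fits.

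Genes that change with age carried the interaction in a common direction. The average age change over both genotypes is arithmetically independent of the interaction in this balanced design, so genes were grouped by it into 1469 that rose at least 2-fold, 1163 that fell at least 2-fold and 14859 others. In the rising genes the median interaction was 0.23, with 74.7% above 0 and 17.6% at a positive unadjusted p below 0.05, against 49.1% and 4.57% of all genes tested. In the falling genes the median was -0.185, with 70.9% below 0 and 18.8% at a negative unadjusted p below 0.05, against 50.9% and 5.38% of all. The other genes had a median of -0.0067. Rising genes were lower in Cyfip2+/- mice at PWK 1, with a median difference of -0.23, and close to WT at PWK 7, with -0.020, and falling genes were higher at PWK 1, with 0.18, and close to WT at PWK 7, with -0.0048. With classes taken from the 16 hippocampus libraries of the same ages instead, a choice made after seeing the data, the median interactions in the cortex were 0.22 and -0.16.

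The position of each library along this age axis was the mean log2 value of the rising genes minus that of the falling genes. At PWK 1 the 4 WT libraries lay at -1.792, -1.552, -2.002 and -2.039, and the 4 Cyfip2+/- libraries at -2.461, -2.407, -2.070 and -2.181. All Cyfip2+/- libraries were lower, by 0.43 on average, and the WT libraries alone spanned 0.49. Replicates 1 and 2 of both genotypes made most of the gap, at -2.461 and -2.407 against -1.792 and -1.552, whereas replicates 3 and 4 lay close together, at -2.070 and -2.181 against -2.002 and -2.039. In the hippocampus, replicates 3 and 4 of PWK 1 overlapped between genotypes, at -1.713 and -1.858 in Cyfip2+/- and -1.766 and -1.822 in WT libraries, and replicates 1 and 2 did not, at -1.977 and -2.038 against -1.516 and -1.416. Without WT replicate 2, the library farthest along the axis, the difference was 0.34. At PWK 7 the groups overlapped, at 1.22 to 1.33 in WT and 1.22 to 1.31 in Cyfip2+/- mice. On a scale where the WT means of PWK 1 and PWK 7 are 0% and 100%, the Cyfip2+/- mean at PWK 1 was -13.9% ± 5.95 (SD, n = 4) and that at PWK 7 was 99.4% ± 1.32 (SD, n = 4). The exact age of each mouse within its week and its litter are not in the records used here, and their part in the position at PWK 1 was not tested.

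**Figure D2:**
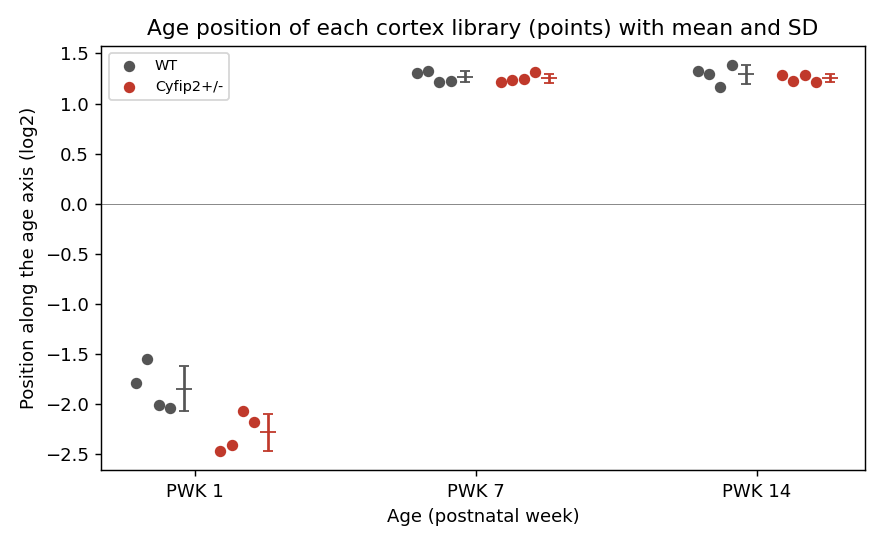
Position of each cortex library along the age axis (log2, vertical) at PWK 1, 7 and 14 (horizontal), with WT mice in grey, Cyfip2+/- mice in red, 4 libraries a group, and the group mean with its SD beside the points. The 4 Cyfip2+/- libraries lie between -2.46 and -2.07 at PWK 1, next to but not overlapping the WT libraries, and the genotypes overlap at PWK 7 and 14.

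The 12 genes with the smallest p in the positive direction, none of which passed the adjusted threshold, were Igfn1, Vwf, Clmn, Hc, Pvalb, Lag3, Trim56, Cyp4f17, Rapgef6, H2-Aa, Il10ra and Tprkb. Pvalb had normalized counts of 88.0, 143, 49.4 and 41.6 in the 4 WT libraries and 13.3, 10.5, 30.6 and 15.5 in the 4 Cyfip2+/- libraries at PWK 1, and of 1015, 1108, 1036 and 1089 in the WT and 971, 996, 1072 and 1214 in the Cyfip2+/- libraries at PWK 7. Pvalb encodes parvalbumin, the calcium buffer of fast-spiking inhibitory interneurons that appears as these cells mature, and its genotypes were separate at PWK 1 and overlapped at PWK 7. The interaction of Pvalb was 2.08 (SE 0.44, adjusted p = 0.277), and at PWK 1 it was lower in Cyfip2+/- mice by an amount that passed the test, -2.08 (limma, adjusted p = 0.0126). With single libraries left out, Pvalb passed at PWK 1 in 14 of 16 fits. Igfn1 had normalized counts of 35.5, 35.3, 28.3 and 41.4 in the 4 WT libraries and 3.35, 12.3, 8.21 and 12.2 in the 4 Cyfip2+/- libraries at PWK 1, and of 1072, 1351, 1111 and 1395 in the WT and 1147, 1187, 1051 and 1402 in the Cyfip2+/- libraries at PWK 7. Igfn1, an immunoglobulin and fibronectin domain protein known from the sarcomere of skeletal muscle, showed the same order, with separate genotypes at PWK 1 and overlapping ones at PWK 7. Its interaction was 1.93 (SE 0.36, adjusted p = 0.277), from a difference at PWK 1 of -1.97 (limma, adjusted p = 0.0036) and at PWK 7 of -0.041 (adjusted p = 0.998).

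Lag3, an inhibitory receptor that binds MHC class II proteins, had normalized counts of 51.7 to 92.4 in WT and 32.2 to 37.9 in Cyfip2+/- mice at PWK 1, and of 147 to 203 in WT and 185 to 256 in Cyfip2+/- mice at PWK 7, and its interaction was 1.08 (adjusted p = 0.277). H2-Aa, an MHC class II chain itself, had normalized counts of 12.4 to 18.7 in WT and 4.70 to 8.12 in Cyfip2+/- mice at PWK 1, and of 23.9 to 46.6 in WT and 42.6 to 62.3 in Cyfip2+/- mice at PWK 7, with an interaction of 1.53 (adjusted p = 0.277). Il10ra, a chain of the interleukin 10 receptor, and Trim56, a ubiquitin ligase of innate immunity, had interactions of 0.65 and 0.71. All these genes had lower values in the Cyfip2+/- libraries at PWK 1, and the genotypes of each did not overlap at that age. Lag3, H2-Aa, Il10ra and Trim56 passed the test at PWK 1, with adjusted p of 0.0377, 0.0469, 0.0282 and 0.045 by limma. With single libraries left out, Lag3 passed in 11 and H2-Aa in 3 of 16 fits. H2-Aa also had low counts, under 10 in every Cyfip2+/- library of PWK 1.

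In Vwf, which encodes the von Willebrand factor of blood vessels and platelets, the genotypes crossed. Its normalized counts were 998, 959, 912 and 1051 in WT and 770.3, 814, 848 and 862 in Cyfip2+/- mice at PWK 1, and 602, 668, 516 and 601 in WT and 788, 696, 965 and 769 in Cyfip2+/- mice at PWK 7. Values were thus lower in all Cyfip2+/- libraries at the first age and higher in all of them at the second, with an interaction of 0.68 (SE 0.13, adjusted p = 0.277). Vwf did not pass the test of the genotypes at PWK 1 (limma, adjusted p = 0.15) or at PWK 7, where only Cyfip2 did. The same crossing without overlap at either age was seen in Cyp4f17, a cytochrome P450, and Tprkb, a partner of a tRNA-modifying kinase, with interactions of 1.15 and 0.38. Over all genes tested, the genotypes did not overlap for 7.79% at PWK 1 and 3.04% at PWK 7. Vwf, Cyp4f17 and Tprkb were chosen for their interaction, which favours such a crossing. Clmn, a calponin-domain membrane protein, had normalized counts of 889 to 1009.6 in WT and 686 to 771 in Cyfip2+/- mice at PWK 1, and of 2383 to 2729.9 in WT and 2491 to 2782 in Cyfip2+/- mice at PWK 7, and its interaction was 0.40 (adjusted p = 0.277). Hc, the complement component C5, was near the limit of detection, at 6.94 to 18.9 in WT and 0.00 to 7.09 in Cyfip2+/- mice at PWK 1 and at 0.231 to 0.935 in WT and 2.78 to 11.7 in Cyfip2+/- mice at PWK 7. Rapgef6, an exchange factor for Rap GTPases, had an interaction of 0.48.

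In the negative direction, the 12 genes were Lhx2, Lrfn1, Tspan4, Necab1, Zbtb18, Csk, Rps16, Cdh8, Shroom2, Stmn2, Cadm3 and Lancl3. Lhx2 had normalized counts of 1428, 1409, 1356 and 1402 in the 4 WT libraries and 1678, 1697, 1589 and 1664 in the 4 Cyfip2+/- libraries at PWK 1, and of 1729, 1885, 1559.7 and 1686 in the WT and 1570.0, 1625, 1462 and 1497 in the Cyfip2+/- libraries at PWK 7. Lhx2 is a LIM-homeodomain transcription factor that patterns the cortex, and its mean went from 1399 to 1715 in WT and from 1657 to 1539 in Cyfip2+/- mice, whose libraries were separate from WT at PWK 1 and overlapped at PWK 7. Its interaction was -0.40 (SE 0.0746, adjusted p = 0.277). Csk had normalized counts of 1419, 1007, 1373 and 1293 in the 4 WT libraries and 1888, 1900.0, 1566 and 1506 in the 4 Cyfip2+/- libraries at PWK 1, and of 802, 824, 721 and 849 in the WT and 695, 624, 675 and 758 in the Cyfip2+/- libraries at PWK 7. Csk encodes the kinase that holds Src family kinases inactive, and it was higher in every Cyfip2+/- library at PWK 1 with overlap at PWK 7, which gave an interaction of -0.65 (SE 0.14, adjusted p = 0.277).

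Lrfn1, a synaptic adhesion molecule, had normalized counts of 2135 to 2288 in WT and 2431 to 2646 in Cyfip2+/- mice at PWK 1, and of 1705 to 1915 in WT and 1564 to 1681 in Cyfip2+/- mice at PWK 7, with separate genotypes of opposite order at the 2 ages and an interaction of -0.33 (adjusted p = 0.277). Cdh8, a classical cadherin of developing circuits, had normalized counts of 3497 to 3742 in WT and 4111 to 4790.5 in Cyfip2+/- mice at PWK 1, and of 1076 to 1362 in WT and 1117 to 1157 in Cyfip2+/- mice at PWK 7. Zbtb18, a transcriptional repressor needed for cortical neuron development, had normalized counts of 14473 to 15367 in WT and 16862 to 18922 in Cyfip2+/- mice at PWK 1, and of 11412 to 12609.9 in WT and 10642 to 11877 in Cyfip2+/- mice at PWK 7. Their interactions were -0.39 and -0.30, and both were higher in Cyfip2+/- mice at PWK 1, with adjusted p of 0.041 and 0.0282 by limma. With single libraries left out, Cdh8 passed in 6 and Zbtb18 in 12 of 16 fits. Cadm3 (adhesion), Shroom2 (actin binding), Necab1 (calcium binding), Tspan4 (a tetraspanin) and Lancl3 had interactions of -0.20, -0.27, -0.37, -0.70 and -0.72. Rps16, a ribosomal protein, had -0.27, but 38.0% of the 31-base words in its transcripts also occur in those of other genes, mostly a pseudogene, so its count is uncertain. Among the 24 genes of both directions, 15 passed the test of the genotypes at PWK 1, and with all 24 chosen for their interaction these counts describe the selection.

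**Figure D3:**
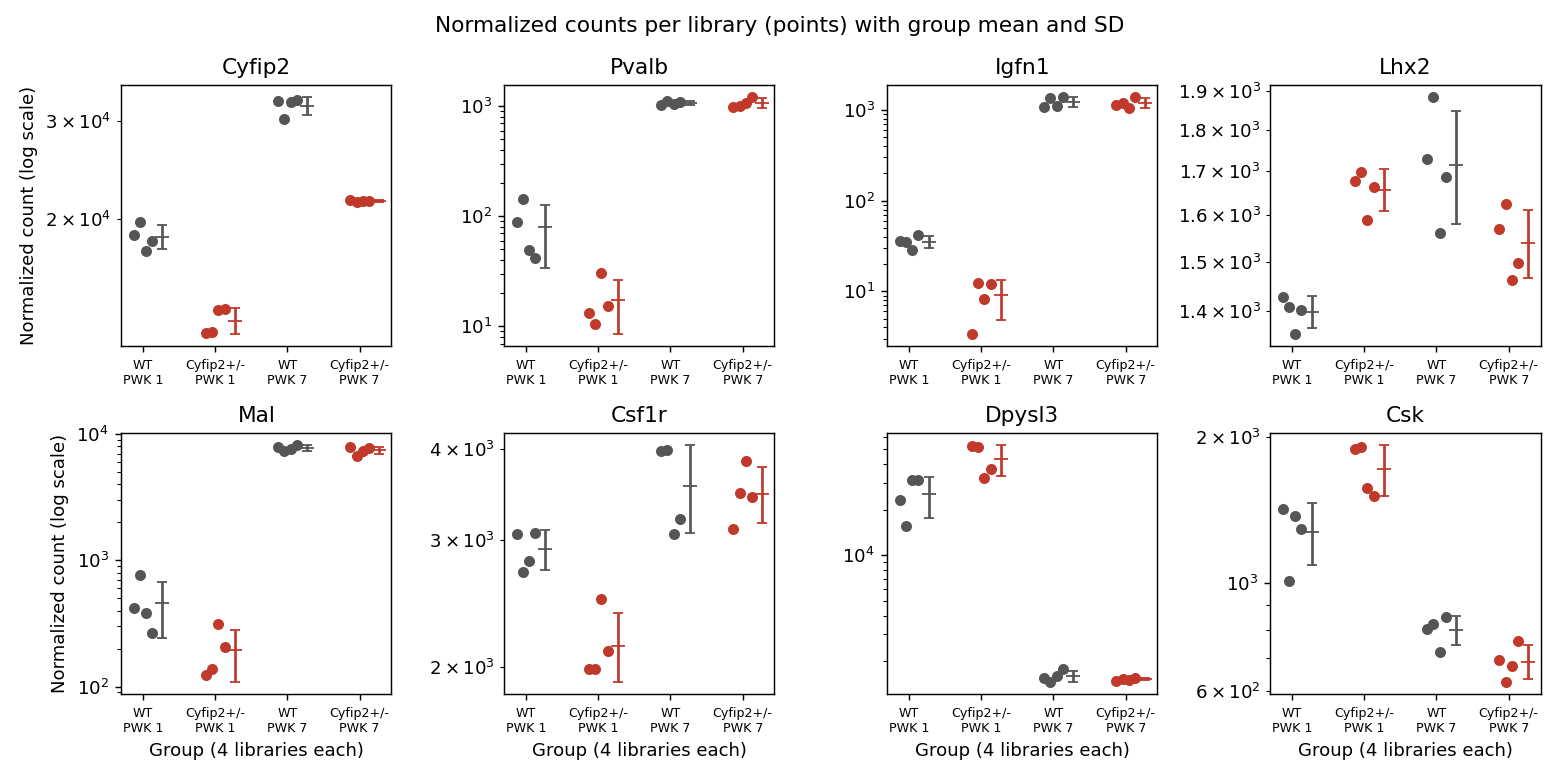
Normalized counts (vertical, log scale) of 8 genes in the 16 cortex libraries by genotype and age (horizontal), with 4 libraries a group as points and the group mean with its SD beside them, WT in grey and Cyfip2+/- in red. Cyfip2 is separate at both ages, whereas Pvalb, Igfn1, Lhx2, Csf1r, Dpysl3 and Csk are separate at PWK 1 and overlap at PWK 7, and Mal overlaps at both.

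Of the 11 genes of the WAVE regulatory complex and its paralogs, 2 had a positive and 0 a negative unadjusted interaction p below 0.05, with a median of 0.0805. Members of this and the following lists are called positive or negative where their unadjusted p was below 0.05, which held for 4.57% and 5.38% of all genes tested, and no member passed the adjusted threshold. Among genes that changed at least 2-fold with age the shares were larger, 17.6% positive in rising and 18.8% negative in falling genes. Lists of age-changing genes were not tested against these shares. Over all genes, 49.1% of interactions were above 0 and 50.9% below. Genes of a list share their libraries, so their counts and signs are not independent. In this list the 2 positive genes were Cyfip1 and Abi3, an Abi family member made mainly by microglia in the brain. Abi3 had normalized counts of 92.0, 116, 85.6 and 122 in the 4 WT libraries and 39.7, 53.0, 63.0 and 61.1 in the 4 Cyfip2+/- libraries at PWK 1, and of 139, 114, 93.5 and 144 in the WT and 103, 151, 170.2 and 144 in the Cyfip2+/- libraries at PWK 7. Abi3 was separate at PWK 1, where it passed the test (limma, adjusted p = 0.0377), and overlapped at PWK 7, with an interaction of 1.14 (SE 0.27, adjusted p = 0.277). With single libraries left out, Abi3 passed at PWK 1 in 11 of 16 fits. The subunits that dominate in neurons, Nckap1, Wasf1, Wasf3, Abi2 and Brk1, had interactions between -0.0186 and 0.0893.

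Of the 10 genes of the Arp2/3 complex, 0 were positive and 3 negative at an unadjusted p below 0.05, and 8 of 10 interactions were below 0, with a median of -0.10. Arpc2, a core subunit that contacts the mother filament, had normalized counts of 6029.5 to 6296 in WT and 6456 to 6843 in Cyfip2+/- mice at PWK 1, and of 5023 to 5232 in WT and 4717 to 5078 in Cyfip2+/- mice at PWK 7, with an interaction of -0.20 (adjusted p = 0.277) and separate genotypes at PWK 1. Arpc5 and Actr3 had interactions of -0.27 and -0.17, and reads of Actr3 may be split with a pseudogene that shares 33.4% of its 31-base words. Among 23 regulators of actin turnover, 4 were negative and 0 positive, with a median of -0.0811. Tmsb10, a thymosin that binds actin monomers and is abundant in growing neurons, had normalized counts of 8037 to 9855 in WT and 9797 to 13138 in Cyfip2+/- mice at PWK 1, and of 3014 to 3254 in WT and 2922 to 3201 in Cyfip2+/- mice at PWK 7, and an interaction of -0.38 (adjusted p = 0.31). Cfl2 and Dstn, which sever actin filaments, had -0.27 and -0.15. The 13 tested partners of FMRP and stress granule proteins, a second set of CYFIP-associated genes, had a median of -0.00831, with 1 negative and 0 positive.

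Genes of myelinating oligodendrocytes had the largest median interaction of the 40 lists, 0.62 over 14 genes, with 13 of 14 above 0 and 10 positive at an unadjusted p below 0.05. All 14 rose with age (limma, adjusted p below 0.05), and of all genes that rose at least 2-fold 17.6% were positive. Mal, a membrane protein of compact myelin, had normalized counts of 419.9, 767, 385 and 265 in WT and 124, 138, 316 and 205 in Cyfip2+/- mice at PWK 1, and of 7866, 7296, 7563 and 8212 in WT and 7956, 6733, 7306 and 7686 in Cyfip2+/- mice at PWK 7. Mog, a protein of the outermost myelin layer, had normalized counts of 216 to 554 in WT and 104 to 244 in Cyfip2+/- mice at PWK 1, and of 1468 to 1790.5 in WT and 1576 to 1671 in Cyfip2+/- mice at PWK 7. Mobp, a structural protein of central myelin, had normalized counts of 2426 to 6055 in WT and 1409.7 to 2784 in Cyfip2+/- mice at PWK 1, and of 23359 to 26191 in WT and 22547 to 25049.7 in Cyfip2+/- mice at PWK 7. Each of the 3 overlapped between genotypes at both ages, the lowest WT library at PWK 1 lying below the highest Cyfip2+/- library. Their interactions were 1.16 (SE 0.37, adjusted p = 0.351) for Mal, 1.01 for Mog and 0.85 for Mobp. At PWK 1, 7 of the 14 genes were lower in Cyfip2+/- mice at an adjusted p below 0.05, against 0.846% of all genes, and the median difference was -0.75, whereas at PWK 7 it was -0.12 and none of the 14 had an unadjusted p below 0.05 there, against 4.65% of all genes.

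The mean log2 level of the myelin list had an SD of 0.443 in WT and 0.326 in Cyfip2+/- mice at PWK 1. At PWK 7 these were 0.0541 and 0.0542, and the test pools the spread over both ages. At PWK 1 the level was 8.84 and 9.01 in Cyfip2+/- against 9.81 and 10.49 in WT replicates 1 and 2. In replicates 3 and 4 it was 9.60 and 9.18 against 9.73 and 9.44, so replicates 1 and 2 made most of the gap. WT replicate 2 at PWK 1 held the most myelin RNA and Cyfip2+/- replicate 1 the least. Without the former, the median interaction of the list was 0.41 with 7 genes positive, and without the latter it was 0.49 with 5 positive, while in both cases 0 of the 14 passed the test at PWK 1. Precursors of these cells did not share the interaction, which had a median of -0.0235 over 10 marker genes. Of these 1, Pdgfra, the growth factor receptor of the precursors, was negative and 0 were positive. At PWK 1, 9 of the 10 markers were lower in Cyfip2+/- mice, 4 of them at an unadjusted p below 0.05. At PWK 7, 5 of the 10 had an unadjusted p below 0.05. Over all genes these shares were 17.5% at PWK 1 and 4.65% at PWK 7, both directions counted. Their mean log2 level was lower in Cyfip2+/- mice at both ages without overlap, at 10.1 to 10.3 against 10.4 to 10.5 at PWK 1 and at 9.70 to 9.79 against 9.87 to 9.97 at PWK 7.

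The start regions of Mal, Mog and Mobp are shown because these are the myelin genes with the smallest interaction p. The 300-base windows around the annotated start, from RefSeq on GRCm38.p6, were searched on both strands for ACAAAG, the core recognized by Sox proteins such as the oligodendrocyte regulator SOX10, which reads CTTTGT on the other strand. Matches are in capitals, and no other motif was searched.
Mal, GRCm38, chr2:127656646-127656945, minus strand: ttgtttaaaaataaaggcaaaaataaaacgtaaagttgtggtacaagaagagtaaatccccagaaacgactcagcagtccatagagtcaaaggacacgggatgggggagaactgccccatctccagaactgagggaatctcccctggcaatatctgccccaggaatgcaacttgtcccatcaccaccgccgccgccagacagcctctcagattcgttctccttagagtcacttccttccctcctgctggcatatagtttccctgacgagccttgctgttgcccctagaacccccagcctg
Mog, GRCm38, chr17:37023349-37023648, minus strand: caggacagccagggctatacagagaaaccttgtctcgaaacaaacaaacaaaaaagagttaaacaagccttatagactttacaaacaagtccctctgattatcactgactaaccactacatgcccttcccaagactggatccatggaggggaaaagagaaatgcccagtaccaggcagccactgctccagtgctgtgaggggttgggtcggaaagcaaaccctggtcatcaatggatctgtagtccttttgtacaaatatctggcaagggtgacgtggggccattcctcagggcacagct
Mobp, GRCm38, chr9:120149492-120149791, plus strand: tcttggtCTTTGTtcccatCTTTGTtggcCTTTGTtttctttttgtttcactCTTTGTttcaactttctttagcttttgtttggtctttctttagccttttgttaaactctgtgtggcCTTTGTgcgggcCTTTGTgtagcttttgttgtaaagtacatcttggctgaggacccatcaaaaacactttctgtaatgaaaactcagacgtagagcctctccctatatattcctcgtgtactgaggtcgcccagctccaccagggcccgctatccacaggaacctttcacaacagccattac
Mobp held 6 matches, all on the other strand, and was the only one of the 32851 windows of all genes with that many, while Mal and Mog held 0. Of the 12 windows found for 10 of the 14 list genes, 5 held at least 1 match, against 18.7% of all windows. A match is a run of letters and not a bound site, and a window without one says nothing about the factor.

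Astrocyte and microglia markers leaned the same way, and in both lists replicates 1 and 2 made most of the gap at PWK 1. The mean log2 level of the astrocyte markers at PWK 1 was 11.93 and 11.97 in Cyfip2+/- against 12.29 and 12.27 in WT replicates 1 and 2. In replicates 3 and 4 it was 12.01 and 11.98 against 12.04 and 12.09. Of 12 astrocyte markers all 12 interactions were above 0 and 7 were positive at an unadjusted p below 0.05, with a median of 0.17. Gjb6, a connexin of astrocyte gap junctions, had normalized counts of 617 to 824 in WT and 399 to 595 in Cyfip2+/- mice at PWK 1, and of 1655 to 1980.0 in WT and 1808 to 2246 in Cyfip2+/- mice at PWK 7. S100b, a calcium-binding protein of maturing astrocytes, had normalized counts of 887 to 1239 in WT and 639.8 to 874 in Cyfip2+/- mice at PWK 1, and of 2942 to 3335 in WT and 2857 to 3159 in Cyfip2+/- mice at PWK 7. In both genes the genotypes were separate at PWK 1 and overlapped at PWK 7, with interactions of 0.55 (adjusted p = 0.32) and 0.39 (adjusted p = 0.384). Slc1a2, the main glutamate transporter of astrocytes, had an interaction of 0.34 with overlap at both ages. The count of positive markers was 3 without WT replicate 3 of PWK 7 and 10 without WT replicate 2 of that age, and 4 when WT replicate 1 or 2 or Cyfip2+/- replicate 1 or 2 of PWK 1 was left out.

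Of 14 microglia markers, 13 interactions were above 0 and 8 were positive at an unadjusted p below 0.05, with a median of 0.26. Csf1r, the growth factor receptor on which microglia depend, had normalized counts of 3052, 2706, 2808 and 3068 in WT and 1988, 1987, 2484 and 2107 in Cyfip2+/- mice at PWK 1, and of 3973, 3993, 3054 and 3204 in WT and 3105, 3481, 3856 and 3429.5 in Cyfip2+/- mice at PWK 7. Tmem119, a surface marker of mature microglia, had normalized counts of 436 to 670.0 in WT and 282 to 471 in Cyfip2+/- mice at PWK 1, and of 653 to 693 in WT and 653 to 706 in Cyfip2+/- mice at PWK 7. Csf1r was separate at PWK 1 and overlapped at PWK 7, Tmem119 overlapped at both ages, and their interactions were 0.42 (adjusted p = 0.339) and 0.49 (adjusted p = 0.388). C1qb, a complement chain that tags synapses, had 0.25. Csf1r, P2ry12 and Itgam were lower in Cyfip2+/- mice at PWK 1 at an adjusted p below 0.05, against 0.846% of all genes. At PWK 7, 0 of the 14 differed at an unadjusted p below 0.05, against 4.65% of all genes. Without WT replicate 1 or 2 or Cyfip2+/- replicate 1 or 2 of PWK 1, 0 of the 14 passed at that age. Without WT replicate 1 or Cyfip2+/- replicate 1 of PWK 1, 5 markers were positive. The mean log2 level of the microglia markers at PWK 1 was 9.01 and 9.05 in Cyfip2+/- against 9.46 and 9.39 in WT replicates 1 and 2. In replicates 3 and 4 it was 9.26 and 9.17 against 9.28 and 9.38. Interferon response genes had a median of 0.20 with 3 of 14 positive and 0 negative, led by Ifitm3 at 0.42, Bst2 at 0.65 and Ifit3b at 0.75, the last of uncertain count because its family members share sequence.

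Vessel genes were mixed. Of 12 endothelial markers 2 were positive and 1 negative, with a median of 0.12 that was 0.00759 without Cyfip2+/- replicate 2 and 0.0139 without WT replicate 4 of PWK 7. Slco1a4, an organic anion transporter of the blood-brain barrier, had normalized counts of 433 to 630.0 in WT and 318 to 433 in Cyfip2+/- mice at PWK 1, and of 1617 to 1714 in WT and 1526 to 1854 in Cyfip2+/- mice at PWK 7, with an interaction of 0.61 (adjusted p = 0.277), while Ocln, a tight junction protein, had -0.32. Of 10 pericyte and smooth muscle markers, 3 were positive, the contractile genes Myh11, Acta2 and Tagln, at 0.56, 0.88 and 0.50. Blood cell genes had 8 of 8 interactions above 0 and none with an unadjusted p below 0.05, with a median of 0.30, and summed to 6492 to 8780.0 in WT and 7354 to 12230.0 in Cyfip2+/- mice at PWK 7. At PWK 1 these sums were 8413 to 13510.0 and 8065 to 11810.0, with overlap at both ages, and their part in the values of Vwf and the immune genes was not tested. Of 16 collagen and basement membrane genes 3 were positive, and of 12 meningeal markers 1 was, with medians of 0.0834 and 0.0946.

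Interactions of immature neuron genes had the opposite sign to those of the glial genes. The median interaction over 18 genes was -0.27, the lowest of the 40 lists, with 12 negative and 0 positive at an unadjusted p below 0.05. All 18 fell with age (limma, adjusted p below 0.05), and of all genes that fell at least 2-fold 18.8% were negative. Dpysl3, a collapsin response mediator of growing axons, had normalized counts of 23070.2, 15541, 31287 and 31509 in WT and 52530.2, 51620.0, 32567 and 36976 in Cyfip2+/- mice at PWK 1, and of 1538, 1446, 1587 and 1780.2 in WT and 1486, 1531, 1512 and 1549 in Cyfip2+/- mice at PWK 7. Stmn2, a microtubule regulator of growth cones, had normalized counts of 36541 to 44823 in WT and 43705 to 53733 in Cyfip2+/- mice at PWK 1, and of 10680.3 to 12002 in WT and 10166 to 10981 in Cyfip2+/- mice at PWK 7. Tubb3, the tubulin of young neurons, had normalized counts of 30194 to 38792 in WT and 38667 to 49067 in Cyfip2+/- mice at PWK 1, and of 11625 to 13192 in WT and 11173 to 12272 in Cyfip2+/- mice at PWK 7. Dpysl3 was separate at PWK 1, Stmn2 and Tubb3 overlapped there by a narrow margin, and all 3 overlapped at PWK 7. Interactions were -0.86 (SE 0.25, adjusted p = 0.32) for Dpysl3, -0.40 for Stmn2 and -0.41 for Tubb3.

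At PWK 1, 7 of the 18 immature neuron genes were higher in Cyfip2+/- mice at an adjusted p below 0.05, against 0.6% of all genes, among them Gap43 at 0.39, Crmp1 at 0.49, Tubb2b at 0.75 and Ncam1 at 0.26, which serve axon growth and adhesion. At PWK 7 the median difference was 0.00445 and none had an unadjusted p below 0.05, against 4.65% of all genes. Leaving out any single library gave 10 to 14 negative interactions, which cannot show whether the count rests on several libraries together. The mean log2 level of the list at PWK 1 was 13.4 and 13.33 in Cyfip2+/- against 12.88 and 12.61 in WT replicates 1 and 2. In replicates 3 and 4 it was 13.03 and 13.17 against 13.1 and 13.06. Without WT replicate 1 or 2 or Cyfip2+/- replicate 1 or 2 of PWK 1, 0 of the 18 passed at that age. Dcx, Sox11, Nfib, Neurod1 and Igfbpl1, further members of the list, had interactions of -0.40, -0.0867, 0.0106, 0.12 and 0.13, with unadjusted p of 0.15 to 0.9. Of 25 axon guidance genes 3 were negative and 0 positive, with a median of -0.0616, and these were the receptors Plxna1 at -0.39 and Robo1 at -0.27 and the ligand Efna5 at -0.24. Cell division genes were mixed, with 1 positive and 2 negative of 18.

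Among 14 interneuron markers, 4 were positive and 0 negative, with a median of 0.16 that was 0.0728 without WT replicate 2 of PWK 1. Beside Pvalb these were Gad2, Gad1 and Calb2, and Calb2 was high in WT replicate 3 of PWK 1 alone, at 1361.5 against 619 to 693 in the other WT libraries. Gad2, an enzyme of GABA synthesis, had normalized counts of 3888 to 4168 in WT and 2809.5 to 3721 in Cyfip2+/- mice at PWK 1, and of 3965 to 4266 in WT and 4025 to 4264 in Cyfip2+/- mice at PWK 7, which were separate at PWK 1 (limma, adjusted p = 0.0377) and overlapped at PWK 7, and its interaction was 0.33 (adjusted p = 0.31). With single libraries left out, Gad2 passed at PWK 1 in 11 of 16 fits. Sst, Vip, Lhx6 and Reln, markers of other interneuron classes and their lineage, had interactions of -0.0439, 0.18, -0.12 and -0.01, all at unadjusted p of 0.298 or more. Of 13 excitatory neuron markers, 1 was positive and 2 were negative, among them Slc17a7 at 0.27 and Neurod6, a transcription factor of young pyramidal neurons, at -0.44. Of 10 striatal neuron markers 0 had an unadjusted p below 0.05, and their median interaction of 0.11 was -0.21 without WT replicate 3 of PWK 1, the library that was also highest for Calb2, and 0.37 without WT replicate 4 of PWK 7. The part of striatal tissue in the neuronal values was not tested.

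Grin2c and Grin2d, which had the smallest interaction p of the 7 NMDA receptor genes, had interactions of opposite sign. No other member, Grin2a included, had an unadjusted p below 0.05. Grin2c, an NMDA receptor subunit gained with age, had normalized counts of 488 to 726 in WT and 199 to 461 in Cyfip2+/- mice at PWK 1, and of 1404 to 1778 in WT and 1449 to 1741 in Cyfip2+/- mice at PWK 7, with an interaction of 0.97 (adjusted p = 0.32). Grin2d, a subunit of early life, had normalized counts of 1384 to 1874 in WT and 1931 to 2355 in Cyfip2+/- mice at PWK 1, and of 462 to 551 in WT and 509 to 590.2 in Cyfip2+/- mice at PWK 7, with an interaction of -0.35 (adjusted p = 0.388). For the GABA-A receptor, Gabra5, an early subunit, had an interaction of -0.28 (adjusted p = 0.32). Gabra5 had normalized counts of 3395 to 3999.5 in WT and 4163 to 4742 in Cyfip2+/- mice at PWK 1, and of 1452 to 1718 in WT and 1539 to 1636 in Cyfip2+/- mice at PWK 7. Grin2c, Grin2d and Gabra5 were separate at PWK 1, each at an adjusted p of 0.0384 by limma, and overlapped at PWK 7. With single libraries left out, each passed at PWK 1 in 9 of 16 fits. The lists as a whole were balanced, with 1 positive and 1 negative of 7 NMDA receptor genes, the same of 16 GABA genes, 1 and 0 of 14 AMPA and kainate receptor genes, 1 and 2 of 20 postsynaptic scaffold genes and 1 and 1 of 23 synaptic vesicle genes.

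Of 20 potassium channel genes, 6 were positive and 0 negative, with a median of 0.12. Kcnab2, an auxiliary subunit of axonal potassium channels, had normalized counts of 4326 to 4904 in WT and 3219 to 4038 in Cyfip2+/- mice at PWK 1, and of 12027 to 12676 in WT and 11913 to 12939 in Cyfip2+/- mice at PWK 7, with separate genotypes at PWK 1 and an interaction of 0.31 (adjusted p = 0.32). Kcnj4 and Kcna2 had 0.34 and 0.28. Among 11 sodium channel genes, the beta subunit Scn2b was positive at 0.34, and Fgf13, a channel modulator of growing neurons, was negative at -0.20, with 3 positive and 2 negative in all. Of 15 calcium channel genes 2 were positive, Cacna2d3 and Cacna1i. In the brain matrix, Hapln4, a link protein of perineuronal nets, had normalized counts of 80.8 to 266 in WT and 33.3 to 94.9 in Cyfip2+/- mice at PWK 1, and of 3381 to 3739 in WT and 3069 to 3399 in Cyfip2+/- mice at PWK 7. Has3, a hyaluronan synthase, had normalized counts of 124 to 224 in WT and 219.7 to 361 in Cyfip2+/- mice at PWK 1, and of 58.8 to 62.7 in WT and 56.5 to 59.1 in Cyfip2+/- mice at PWK 7. Both overlapped at PWK 1, and their interactions were 1.14 (adjusted p = 0.379) and -0.87 (adjusted p = 0.32).

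**Figure D4:**
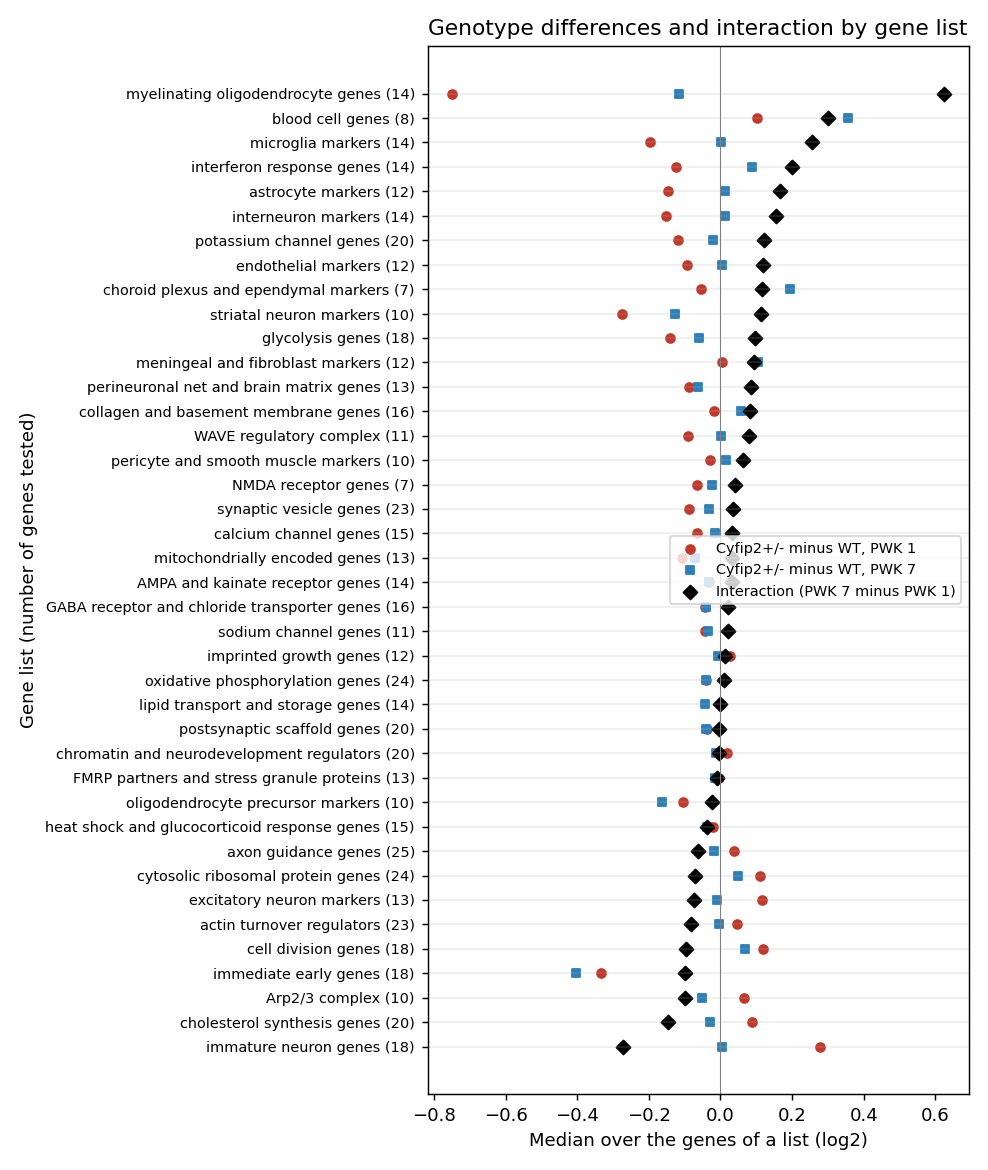
Median over the tested genes of each of the 40 lists (vertical, with the number of genes) of the difference Cyfip2+/- minus WT at PWK 1 (red circles), the same at PWK 7 (blue squares) and the interaction (black diamonds), on the log2 scale (horizontal). Myelinating oligodendrocyte genes lie farthest to the right at 0.62 and immature neuron genes farthest to the left at -0.27, and in both the difference at PWK 1 is the larger one.

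Genes of cholesterol synthesis, which supplies both growing membranes and myelin, had 19 of 20 interactions below 0 and 7 negative at an unadjusted p below 0.05, with a median of -0.14. Hsd17b7 and Sqle, enzymes of the pathway, had interactions of -0.19 and -0.27. In this list neither age had a gene past the adjusted threshold, and the median difference was 0.088 at PWK 1 and -0.0287 at PWK 7. An unadjusted p below 0.05 was found for 7 of the 20 at PWK 1 and 5 of the 20 at PWK 7. Over all genes these shares were 17.5% and 4.65%. Among 14 lipid transport and storage genes 4 were negative and 2 positive, with Fabp5, a fatty acid carrier of young neural cells, at -0.38, Fasn, the fatty acid synthase, at -0.29 and Clu, an astrocyte apolipoprotein, at 0.28. Of 18 glycolysis genes 2 were positive and 1 negative, with a median of 0.10.

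In other lists few or no genes had an unadjusted interaction p below 0.05. There were 0 such genes among 24 oxidative phosphorylation genes, 13 mitochondrially encoded genes and 24 cytosolic ribosomal protein genes, with medians of 0.0112, 0.0335 and -0.0706. Immediate early genes, which neurons induce on activity, had medians of -0.33 at PWK 1 and -0.40 at PWK 7, with 6 of 18 at an unadjusted p below 0.05 at each age (17.5% and 4.65% of all genes), and their median interaction was -0.10, which changed sign with single libraries, being 0.11 without WT replicate 4 and -0.24 without WT replicate 1 of PWK 7. Arc and Fos, the best-known of them, had differences of -0.99 and -0.60 at PWK 1 and of -0.86 and -0.52 at PWK 7, none past the adjusted threshold. Of these 18 genes, 1 had a positive interaction, Nr4a2 at 0.75. Chromatin regulators, imprinted growth genes and stress response genes had medians between -0.0385 and 0.0132, and among the stress genes the metal-binding Mt1 and Mt2 were positive at 0.54 and 0.69 and the chaperone Hspa1b was negative at -0.71, with a count made uncertain by its near-identical copy.

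The same interaction was then set beside that of the hippocampus, measured in 16 libraries of the same ages and genotypes. No source says whether both tissues came from the same mice, and libraries that share age, genotype and replicate number were treated as a block. No gene differed between regions in the three-way test (0 of 18141 by limma with this block, 0%, and also 0 without it), the smallest adjusted p was 0.319, and 958 genes (5.28%) had an unadjusted p below 0.05 where 907 would be given by equally spread p-values. In the hippocampus 0 genes passed the test of the interaction and 1306 had an unadjusted p below 0.05, positive in 3.47% and negative in 3.73% of the genes tested. The rising and falling genes of the cortex had median interactions of 0.15 and -0.16 there. Of the 12 positive genes of the cortex 10 had the same sign in the hippocampus, and of the 12 negative genes 12 did, with 2 and 3 at an unadjusted p below 0.05. Over all genes tested in both regions, the shares of the same sign were 61.6% of the positive and 60.6% of the negative genes. Pvalb had an interaction of 1.31 in the hippocampus (unadjusted p = 0.00436), whereas Igfn1 had -0.91 (unadjusted p = 0.132), which differed from its value in the cortex at an unadjusted three-way p of 0.000713 but not after adjustment (adjusted p = 0.772).

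Lists showed the same sides in both regions at their extremes. Myelinating oligodendrocyte genes had a median of 1.00 in the hippocampus, with 11 of 14 positive at an unadjusted p below 0.05 (3.47% of all genes), and immature neuron genes -0.32, with 12 of 18 negative (3.73% of all genes). Microglia and astrocyte markers had 0.19 and 0.0852, with 4 of 14 and 3 of 12 positive. Blood cell genes had -0.11 against 0.30 in the cortex, and cholesterol synthesis genes -0.075 with 0 of 20 negative. The regions may share their mice and were not taken as independent samples of animals, and position along the age axis differed in the hippocampus at PWK 1 by -0.27 with overlapping genotypes.

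**Figure D5:**
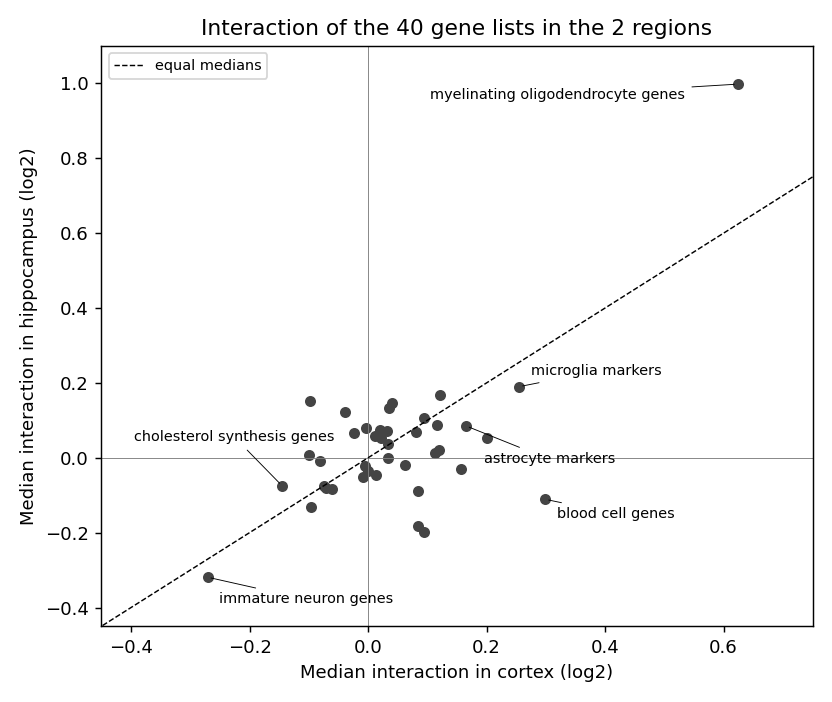
Median interaction (log2) of each of the 40 gene lists in the cortex (horizontal) and in the hippocampus (vertical), 1 point a list, with the dashed line marking equal medians. Myelinating oligodendrocyte genes lie at the upper right with 0.62 and 1.00, and immature neuron genes at the lower left with -0.27 and -0.32.

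At PWK 14, an age outside the interaction, 3 genes (0.0169%) differed between genotypes in a fit of the 24 cortex libraries, and 1474 (8.29%) had an unadjusted p below 0.05 where 889 would be given by equally spread p-values. Cyfip2 was lower by a difference of -0.59 (limma, adjusted p = 1.15e-07). The other two were the uncharacterized AI661453 at 1.72 and the microRNA host transcript Mir670hg at -1.64 (limma, adjusted p = 0.0149 for each). The median difference was 0.16 in myelinating oligodendrocyte genes, 0.10 in immature neuron genes and 0.088 in microglia markers, and over the 40 lists it ran from -0.37 in choroid plexus and ependymal markers to 0.41 in striatal neuron markers. Pvalb and Igfn1 had differences of -0.18 and -0.045 at PWK 14, with unadjusted p of 0.518 and 0.839.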

How the data were processed

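Cortex and hippocampus were sequenced as paired-end RNA-seq libraries. The deposited table holds a signal per gene and library, which is the count estimated by Salmon and divided by DESeq2 size factors by the authors, for 18428 genes and 48 libraries, and 0 columns belong to other samples. The submitters' processing notes name Salmon 0.11.2, DESeq2 1.19.11 and R 3.6.0, while the study's methods name later versions, and the annotation release and the filter on genes are not given in the sources used here. The notes call the library kit mRNA-directed and the methods speak of total RNA. Raw counts were not used here, so depth is unknown and no count model was run. Cyfip2+/R87C libraries were not used here. Salmon splits reads among similar transcripts, so counts of genes that share sequence are estimates. Division by size factors also leaves values that are not whole.

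Groups came from the labels of genotype, age and tissue. The 16 cortex libraries of PWK 1 and 7 were fitted gene by gene with limma 3.58.1 (R 4.3.3; lmFit and eBayes with a trend, 2-sided) on log2 of the normalized count plus 1, after keeping genes at 10 or more in at least 4 libraries, and p-values were adjusted by the Benjamini-Hochberg method over all genes tested. Labels do not state separate cultures or litters. Each gene had a single estimate of the spread between replicates, shared by all groups, so p-values do not measure the spread within any single group. Position along the age axis had an SD of 0.224 in WT and 0.185 in Cyfip2+/- cortex at PWK 1. At PWK 7 these were 0.0546 and 0.0411. Where the spread is larger at PWK 1, the shared estimate makes p-values of that age too small. Hippocampus libraries joined in a fit of 32 with a random block of libraries that share age, genotype and replicate number (consensus correlation 0.188), as no source says whether both tissues came from the same mice. Genes were given by their symbols in GENCODE vM21 on GRCm38 (18414 of 18428 identifiers matched). Fits were tested on simulated data. The simulation gave each gene the same spread in all groups, so it cannot show how the fit behaves where the spread differs between ages.

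Genes named are Cyfip2 and Cyfip1, the 12 with the smallest interaction p in each direction, leaving out predicted-gene names, the 3 with the smallest p in each of 40 gene lists (607 genes), and further list members chosen after their values were seen. The members and lists were chosen with earlier results of these data known. Sharing of sequence was measured as the percent of 31-base words of a gene's transcripts that occur in other genes, and a gene with 0 in a whole group or near it is given by its values. Start regions came from RefSeq. Alternatives were another scaling, quantile normalization, filters, pseudocounts of 0.1 and 10, a robust prior, array weights, more libraries in the fit, a replicate block, and the omission of single libraries; those for age classes and position were chosen after seeing the data. Some members of the lists are not reported here.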

Additional observations from a re-analysis of the deposited data

Results flagged for a closer look

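Of 156 groups of 4 libraries examined, for 38 genes and for the position along the age axis, 6 held a library whose gap to its nearest neighbour took up most of the range of its group, and about 1 in 20 groups, or 8, would do so by chance. In 7-week-old WT cortex, replicate 2 held 30230.9 normalized counts of Cyfip2 against 32459.5 to 32714.3 in the others. For Lag3, Cyfip2+/- replicate 4 at 1 week held 32.16 against 37.41 to 37.85. For Zbtb18, WT replicate 1 at 7 weeks held 12609.9 against 11412 to 11600.6. For Cdh8, Cyfip2+/- replicate 3 at 7 weeks held 1117.1 against 1153 to 1157.1. For Arpc2, WT replicate 4 at 7 weeks held 5023.4 against 5229.8 to 5231.7. For Gabra5, Cyfip2+/- replicate 2 at 7 weeks held 1635.5 against 1539.1 to 1548.5.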

How the results depend on the processing

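The number of genes called for the interaction was 1 (Igfn1) in the fit of 24 cortex libraries, 2 (Lhx2 and Pvalb) in that of 48 libraries, 0 to 1 when single libraries were left out (Igfn1 without Cyfip2+/- replicate 1 and Amy2a4 without Cyfip2+/- replicate 2, both of PWK 1), and 0 elsewhere. Genes at an unadjusted p below 0.05 numbered 1342 to 2090 when single libraries were left out and 1446 to 1950 under the other settings. Calls at PWK 1, 253 as reported, numbered 491 with array weights, 424 with 24 cortex libraries, 538 with 48 libraries and 3 to 730 when single libraries were left out. At PWK 7 they numbered 1 to 2 when libraries were left out, and the three-way test called 0 to 1 (1 without WT replicate 3 or Cyfip2+/- replicate 3 of PWK 1 or WT replicate 1 of PWK 7 in the cortex). The cause of these shifts was not tested.

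With the replicate number as a block (replicate block), the interaction had 0 genes called and a smallest adjusted p of 0.112 by limma, and calls at PWK 1 numbered 12. The labels give the numbers no meaning beyond a name, and libraries of the same number in different groups deviated together by a correlation of 0.0106 against -0.00353 for other numbers, with 7 of 16 libraries correlating best with their own number.

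Of 3838 values of named genes under alternatives, 3832 kept direction and side of the threshold, and 2 reversed. The interaction of mt-Nd1 was -0.0332 under quantile normalization, and that of mt-Atp8 was -0.0239 to 0.243 when single libraries were left out, with the lowest value without Cyfip2+/- replicate 4 of PWK 7. No named gene had passed the threshold as reported, so keeping its side meant staying uncalled. Most named genes were chosen for a small interaction p, which makes a reversal unlikely, so the count of 3832 says little about stability. The median interaction of rising genes was 0.176 to 0.267 and that of falling genes -0.212 to -0.136 when libraries were left out, and 0.172 to 0.242 and -0.21 to -0.157 elsewhere. Leaving out single libraries changed the sign of the median in lists near 0 (FMRP partners, oligodendrocyte precursors, NMDA and GABA receptors, postsynaptic scaffolds, sodium channels, imprinted genes, chromatin regulators, lipid transport, oxidative phosphorylation, mitochondrially encoded, stress response, immediate early and striatal genes). The position difference at PWK 1 was -0.504 to -0.336. Depth is unknown, so the share of the spread that comes from counting cannot be given.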
